A study of Oryctolagus cuniculus with 9 samples.

Results

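The transcripts of 10 enzymes and partner proteins of the eicosanoid pathway were followed in rabbit vocal folds. They were chosen by name as PLA2G4A, PTGS1, PTGS2, PTGES, HPGD, ALOX5, ALOX5AP, LTA4H, ALOX12 and ALOX15, and all 10 were found among the 20525 genes of the deposited table. All 10 also passed the filter on low counts, ALOX15 through the counts of a single group.

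Eicosanoids are short-lived lipid signals made from arachidonic acid. Cytosolic phospholipase A2 frees the acid from membranes, and 2 enzyme branches then compete for it: cyclooxygenases (PTGS) make the precursor of prostaglandins, prostacyclin and thromboxane, while lipoxygenases (ALOX) make leukotrienes, hydroxy fatty acids and lipoxins. In injured tissue these products drive swelling, pain and leukocyte recruitment, and some lipoxygenase products take part in the ending of inflammation.

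Polyadenylated RNA of Oryctolagus cuniculus vocal folds was sequenced in 9 libraries, 3 per group. One group was injured and received SOT, a hydrogel whose name the labels do not spell out, another was injured and received nothing (untreated), and the last had no injury (normal). Both injured groups were sampled 1 week after injury. The labels give no strain, age or sex and do not say whether replicates come from separate animals, so p-values measure the spread between these libraries, which may be technical. The labels call the cells histiocytes of the vocal cord, but the macrophage gene CD68 stood at 263 ± 13.3 CPM in untreated folds beside skeletal muscle, epithelium and fibroblast genes in every library, so the samples are described as tissue. In such bulk samples, fewer cells of a type and less RNA per cell cannot be told apart.

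Levels are normalised counts scaled to library size (CPM) from the deposited read counts. Total counts per library lay between 44755718 and 50338111. A gene is said to have risen or fallen where edgeR's quasi-likelihood test gave a Benjamini-Hochberg adjusted p under 0.05 over all 17344 genes tested. The 2 injured groups were compared with the same 3 normal libraries, so those 2 comparisons share their reference values.

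Some libraries stood apart. SOT replicate 1 correlated at 0.974 with untreated replicate 1, against 0.944 and 0.939 with SOT replicates 2 and 3 (Pearson's r of log2 CPM across 14734 genes, which are not independent replicates). Where untreated replicates 1 and 2 differed by over 1.5-fold, which held for 2582 genes, untreated replicate 3 lay between them for 91.2%, against 17.3% to 63.3% for the other libraries within their own groups. Whether untreated replicate 3 shares material with untreated replicates 1 and 2, or SOT replicate 1 with an untreated library, was not tested. Untreated replicates that shared material would not be 3 independent samples.

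On the build OryCun2.0, PLA2G4A (chromosome 16, 83420778 to 83582315, minus strand) and PTGS2 (chromosome 16, 83706596 to 83713368, plus strand) were neighbours 124281 bases apart. ALOX12 (chromosome 19, 12033859 to 12047294) and ALOX15 (chromosome 19, 12173064 to 12182242), both on the minus strand, lay 125770 bases apart. ALOX5 lay on chromosome 18 (6719075 to 6757526), HPGD on chromosome 2 (52453005 to 52494903) and LTA4H on chromosome 4 (75201438 to 75241633), all on the minus strand, while PTGS1, PTGES and ALOX5AP lay on unplaced scaffolds. ALOX12 shares 815 bases with LOC103351478 on the opposite strand, which had between 0 and 12 counts per library, and the strandedness of the counting is not given.

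Untreated folds were set against normal folds to ask which of these transcripts differed 1 week after injury. PLA2G4A, PTGS2, ALOX5, ALOX5AP and ALOX12 rose and PTGS1 fell, while PTGES, HPGD and LTA4H did not pass. ALOX15 was called higher too, but it passed the filter through the untreated libraries alone and so had to differ. The 6 calls among the other 9 stood beside 32.8% of all genes tested, 17.7% higher and 15.1% lower. Except for ALOX5, each of these 6 calls held in all 9 fits that left out 1 library, with adjusted p of at most 0.0407. With ALOX15 counted, the groups did not overlap for 9 of 10, with 7 higher and 2 lower in untreated folds, beside 55.1% of all genes, 28.0% higher and 27.1% lower. By DESeq2 8 of the 10 passed, with ALOX15 counted and LTA4H being the added one, beside 41.4% of all genes. Without SOT replicate 1 there were 7 of 10, ALOX15 again counted, beside 33.2%. The median log2 fold change was 1.66 for the 9 transcripts without ALOX15 and -0.024 for all genes.

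SOT folds were set against normal folds in the same way. PLA2G4A and PTGS2 rose and PTGS1 fell, and the other 7 did not pass, so 3 of 10 were called beside 16.7% of all genes, 9.01% higher and 7.67% lower. The groups did not overlap for 4 transcripts that were higher in SOT folds, PLA2G4A, PTGS2, PTGES and ALOX5AP, and 1 that was lower, PTGS1, beside 36.4% of all genes, 17.8% higher and 18.6% lower. By DESeq2 5 passed, with ALOX5AP and ALOX12 added, beside 27.7% of all genes. Without SOT replicate 1 there were 3, beside 13.8%. The median log2 fold change was 0.37 for the 9 transcripts without ALOX15 and 0.020 for all genes.

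SOT folds were set against untreated folds to ask what differed with the hydrogel. None of the 10 passed by edgeR, beside 0.0115% of all genes, which was 2 genes. At an unadjusted p under 0.05 there were 5 of the 10, ALOX15 among them, and 2194 of all genes. DESeq2 called ALOX5 lower in SOT folds, beside 3.93% of all genes, and limma on log2 FPKM called none of the 10. The groups did not overlap for ALOX5AP, ALOX5 and LTA4H, all lower in SOT folds. ALOX15 was also called lower by DESeq2 and did not overlap. It passed the filter through the untreated libraries alone, so it was bound to be lower in SOT folds. Over all genes the groups did not overlap for 19.8%, 7.4% higher and 12.4% lower in SOT folds. The median log2 fold change was -0.52 for the 9 transcripts without ALOX15 and 0.012 for all genes.

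**Figure D1:**
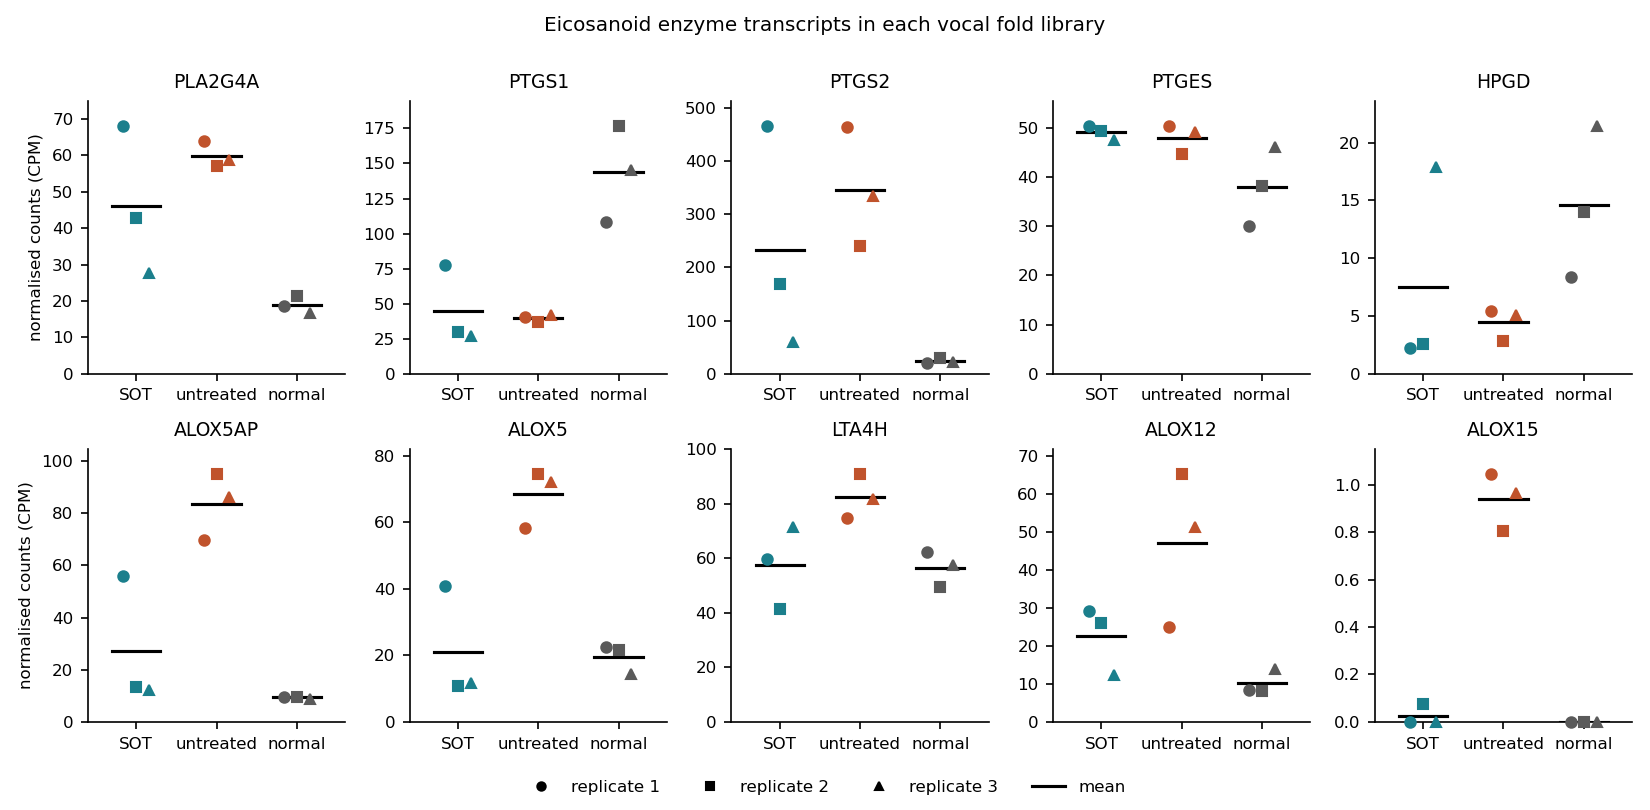
Normalised counts (CPM, linear axes from 0) of the 10 transcripts in each of the 9 libraries, with SOT, untreated and normal folds from left to right, symbols for replicates 1 to 3 and bars for group means. SOT replicate 1 sits near the untreated libraries for PTGS2, ALOX5AP and ALOX5, and ALOX15 has counts in the 3 untreated libraries and in SOT replicate 2.

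The pathway begins with PLA2G4A, the calcium-dependent phospholipase that frees arachidonic acid. It stood at 68.2, 42.7 and 27.6 CPM in SOT replicates 1 to 3, at 64.0, 57.1 and 58.8 CPM in untreated folds and at 18.7, 21.2 and 16.8 CPM in normal folds. Every injured library was above every normal one, and the SOT libraries spread over 2.47-fold where the untreated ones spread over 1.12-fold. The rise over normal folds was 3.17-fold in untreated folds (log2 1.66, SE 0.29, edgeR adjusted p = 0.00409) and 2.44-fold in SOT folds (log2 1.29, SE 0.28, adjusted p = 0.0206). The SOT call was lost without normal replicate 1 (adjusted p = 0.0711), 2 (0.0526) or 3 (0.0570). Between SOT and untreated folds the log2 difference was -0.38 (SE 0.28, adjusted p = 0.614).

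The cyclooxygenases moved in opposite directions. PTGS2, the inducible enzyme known as COX-2, stood at 466, 170 and 59.9 CPM in SOT folds, at 463, 240 and 333 CPM in untreated folds and at 20.6, 29.5 and 23.0 CPM in normal folds. All 6 injured libraries lay above the normal ones, and SOT replicate 1 was 7.78 times SOT replicate 3. PTGS2 was 14.2-fold higher in untreated than in normal folds (log2 3.82, SE 0.68, edgeR adjusted p = 0.00472) and 9.51-fold higher in SOT than in normal folds (log2 3.25, SE 0.67, adjusted p = 0.0165). Without SOT replicate 1 the SOT value was 4.81-fold (log2 2.27, SE 0.45, adjusted p = 0.0222), and the call was lost without normal replicate 1 (0.0666) or 2 (0.0516).

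PTGS1, the constitutive enzyme known as COX-1, had 77.2, 29.5 and 26.8 CPM in SOT folds, 40.3, 37.2 and 42.3 CPM in untreated folds and 109, 177 and 146 CPM in normal folds. Each injured library was below each normal one, and SOT replicate 1 was the highest of the injured libraries. The level was 3.60-fold lower in untreated than in normal folds (log2 -1.85, SE 0.40, edgeR adjusted p = 0.00956) and 3.23-fold lower in SOT than in normal folds (log2 -1.69, SE 0.39, adjusted p = 0.0245). The SOT value was -2.33 on the log2 scale without SOT replicate 1 (SE 0.23, adjusted p = 0.00578), and the call was lost without SOT replicate 2 (0.0742), normal replicate 2 (0.0749) or normal replicate 3 (0.0526). Neither cyclooxygenase passed between SOT and untreated folds (PTGS2 log2 -0.57, SE 0.61, adjusted p = 0.728, and PTGS1 log2 0.16, SE 0.38, adjusted p = 0.894). Without SOT replicate 1 the log2 difference between SOT and untreated folds was -1.55 for PTGS2 (SE 0.48, adjusted p = 0.166) and -0.47 for PTGS1 (SE 0.21, adjusted p = 0.307).

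Skeletal muscle markers, like PTGS1, were lower in injured than in normal folds. Of 12 tested, 2 fell in SOT folds and 9 in untreated folds relative to normal folds, beside 7.67% and 15.1% of all genes. Their summed level was 8669, 1695 and 8336 CPM in SOT folds. It was 7428, 820 and 3064 CPM in untreated folds and 25855, 21828 and 27549 CPM in normal folds. Within each group the order of libraries differed from that of PTGS1. The part of muscle content in the PTGS1 difference was not tested.

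PTGES, the membrane-bound synthase that turns the cyclooxygenase product into prostaglandin E2, was nearly level. It had 50.5, 49.3 and 47.5 CPM in SOT folds, 50.3, 44.6 and 49.1 CPM in untreated folds and 30.0, 38.2 and 46.0 CPM in normal folds. The SOT libraries were all above the normal ones, while untreated replicate 2 lay below normal replicate 3. The log2 fold change was 0.33 in untreated over normal folds (SE 0.15, edgeR adjusted p = 0.117), 0.37 in SOT over normal folds (SE 0.15, adjusted p = 0.123) and 0.032 in SOT over untreated folds (SE 0.15, adjusted p = 0.946). Without normal replicate 3, PTGES passed in untreated (adjusted p = 0.0408) and in SOT folds (0.0452) over normal ones.

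HPGD, the dehydrogenase that takes the first step in prostaglandin breakdown, had 2.19, 2.56 and 17.9 CPM in SOT folds, 5.44, 2.82 and 5.13 CPM in untreated folds and 8.41, 14.0 and 21.5 CPM in normal folds. Untreated libraries were all below the normal ones, and SOT replicate 3 stood within the normal range while SOT replicates 1 and 2 were the lowest of all 9. HPGD did not pass in untreated against normal folds (log2 -1.71, SE 0.80, edgeR adjusted p = 0.132) or in SOT against normal folds (log2 -0.95, SE 0.78, adjusted p = 0.433). Both turned on SOT replicate 3, which also entered the shared estimate of the spread. Without it HPGD fell in untreated folds (log2 -1.72, SE 0.39, adjusted p = 0.0137) and in SOT folds (log2 -2.59, SE 0.47, adjusted p = 0.0129). HPGD also fell in untreated folds when untreated and normal libraries were fitted without any SOT library (log2 -1.72, edgeR adjusted p = 0.0183). The SOT to untreated difference of 0.76 (SE 0.78, adjusted p = 0.722) became -0.87 without SOT replicate 3 (adjusted p = 0.586).

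The leukotriene branch starts with ALOX5, which oxygenates arachidonic acid to leukotriene A4, and ALOX5AP, the membrane protein (FLAP) that presents the acid to it. ALOX5AP had 55.8, 13.5 and 12.4 CPM in SOT folds, 69.7, 95.2 and 86.2 CPM in untreated folds and 9.71, 9.68 and 8.78 CPM in normal folds. ALOX5 had 40.9, 10.6 and 11.7 CPM in SOT folds, 58.3, 74.5 and 72.0 CPM in untreated folds and 22.6, 21.6 and 14.3 CPM in normal folds. For both, each untreated library exceeded every SOT and every normal library, and SOT replicate 1 stood well above SOT replicates 2 and 3. In SOT replicates 2 and 3 ALOX5 was below all 3 normal libraries, while ALOX5AP was above them.

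ALOX5AP was 8.91-fold higher in untreated than in normal folds (log2 3.16, SE 0.56, edgeR adjusted p = 0.00469). ALOX5 was 3.50-fold higher (log2 1.81, SE 0.50, adjusted p = 0.0249). That ALOX5 call was lost without untreated replicate 2 (adjusted p = 0.0688) or 3 (0.0714), or without normal replicate 1 (0.0611), 2 (0.0633) or 3 (0.0764). In SOT over normal folds neither passed, with log2 1.54 for ALOX5AP (SE 0.53, adjusted p = 0.0824) and 0.11 for ALOX5 (SE 0.48, adjusted p = 0.902). Without SOT replicate 3, ALOX5AP passed in SOT over normal folds (log2 1.91, SE 0.48, adjusted p = 0.0337).

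Between SOT and untreated folds the log2 difference was -1.62 for ALOX5AP (SE 0.53, edgeR adjusted p = 0.287) and -1.70 for ALOX5 (SE 0.49, adjusted p = 0.244), and neither passed. DESeq2 gave adjusted p = 0.0523 for ALOX5AP and 0.0232 for ALOX5. Without SOT replicate 1 both passed by edgeR, beside 2.24% of all genes in that fit. ALOX5AP was then 6.33-fold lower in SOT than in untreated folds (log2 -2.66, SE 0.17, adjusted p = 0.00202) and ALOX5 was 5.99-fold lower (log2 -2.58, SE 0.24, adjusted p = 0.00914). In the same fit the log2 value in SOT over normal folds was 0.49 for ALOX5AP (SE 0.15, adjusted p = 0.0711) and -0.78 for ALOX5 (SE 0.22, adjusted p = 0.0547).

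Macrophage and neutrophil markers were read beside ALOX5AP and ALOX5. Of 16 macrophage markers tested, 11 rose in SOT and 13 in untreated folds relative to normal folds, and of 13 neutrophil markers 7 rose in SOT and 10 in untreated folds. Over all genes 9.01% rose in SOT and 17.7% in untreated folds. The macrophage sum was 1621, 1189 and 1221 CPM in SOT folds, 2315, 3223 and 2913 CPM in untreated folds and 533, 679 and 585 CPM in normal folds. The neutrophil sum was 5269, 1898 and 2060 CPM in SOT folds, 5765, 7627 and 6753 CPM in untreated folds and 835, 811 and 2096 CPM in normal folds. SOT replicate 1 was the highest SOT library for both sums, as it was for ALOX5 and ALOX5AP. It was also the highest SOT library for the endothelium, erythroid, mast cell and platelet sums. In SOT replicates 2 and 3 the macrophage sum and ALOX5AP were above every normal library, while ALOX5 was below every one. The T and NK cell sum was instead highest in SOT replicate 3, with 45.6, 41.1 and 149 CPM in SOT folds. It was 38.0, 65.0 and 52.9 CPM in untreated folds and 43.4, 35.9 and 34.9 CPM in normal folds. The part of leukocyte content in the ALOX5 and ALOX5AP differences was not tested.

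LTA4H, the hydrolase that makes leukotriene B4, a neutrophil attractant, had 59.6, 41.6 and 71.4 CPM in SOT folds, 74.7, 91.0 and 81.6 CPM in untreated folds and 62.2, 49.3 and 57.7 CPM in normal folds. Untreated libraries were above all the others, and SOT and normal libraries overlapped. LTA4H did not pass in untreated over normal folds (log2 0.55, SE 0.19, edgeR adjusted p = 0.0593), in SOT over untreated folds (log2 -0.52, SE 0.19, adjusted p = 0.326) or in SOT over normal folds (log2 0.030, SE 0.19, adjusted p = 0.935). It passed in untreated over normal folds without SOT replicate 2 (adjusted p = 0.0152) or SOT replicate 3 (0.0290), where the shared estimate of the spread changed, and by DESeq2 (0.0390). LTA4H also passed there when untreated and normal libraries were fitted without any SOT library (log2 0.54, edgeR adjusted p = 0.0129).

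The remaining lipoxygenases were ALOX12 and ALOX15. ALOX12, in human the 12-lipoxygenase of platelets and skin, had 29.3, 25.9 and 12.5 CPM in SOT folds, 25.0, 65.3 and 51.3 CPM in untreated folds and 8.39, 8.14 and 13.9 CPM in normal folds. All untreated libraries were above the normal ones, SOT replicate 3 was below normal replicate 3, and untreated replicate 1 was below SOT replicates 1 and 2. ALOX12 was 4.66-fold higher in untreated than in normal folds (log2 2.22, SE 0.44, edgeR adjusted p = 0.00712). It did not pass in SOT over normal folds (log2 1.15, SE 0.43, adjusted p = 0.0982) or in SOT over untreated folds (log2 -1.07, SE 0.42, adjusted p = 0.354). Over normal folds it passed without SOT replicate 3 (adjusted p = 0.0403) and by DESeq2 (0.0371).

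Platelet markers were read beside ALOX12. Of 6 tested, 2 rose in SOT folds and 2 in untreated folds relative to normal folds, beside 9.01% and 17.7% of all genes. Their sum was 99.4, 29.6 and 17.7 CPM in SOT folds, 101, 100.2 and 104 CPM in untreated folds and 13.3, 16.6 and 12.6 CPM in normal folds, and PPBP and NFE2 made up most of it in untreated folds and SOT replicate 1. Untreated replicate 1, the lowest untreated library for ALOX12, was level with the other 2 in this sum. Stratified epithelium markers summed to 11236 to 17520 CPM in SOT folds, 14842 to 15499 CPM in untreated folds and 12637 to 32984 CPM in normal folds. Of 17, 3 were higher and 1 lower in untreated folds, beside 17.7% and 15.1% of all genes. The part of platelets or epithelium in the ALOX12 difference was not tested.

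ALOX15, whose description in the deposited table carries the names of both the 15-lipoxygenase and the leukocyte-type 12-lipoxygenase, was close to absent outside untreated folds. It had 0, 4 and 0 counts in SOT replicates 1 to 3, 50, 38 and 46 counts in untreated folds and 0 counts in each normal library. The untreated libraries averaged 0.939 ± 0.122 CPM (SD, n = 3), and a floor of 3 counts per library allowed up to 0.0692 CPM in normal folds. The lowest untreated library was at least 11.7-fold higher than the highest of these floors. The edgeR adjusted p of 0.0105 in untreated over normal folds is given as a description, since ALOX15 was tested only because of its untreated counts. The summed counts were 4 in SOT and 134 in untreated folds, a ratio of 0.0273. Its exact 95% interval of 0.00732 to 0.0714 covers counting error only, not the spread between libraries. Ratio and interval are descriptions too, since ALOX15 passed the filter through its untreated counts and was bound to be lower in SOT folds. With the same limit, the adjusted p between SOT and untreated folds was 0.211 by edgeR and 0.0120 by DESeq2, and no fold is given between SOT and normal folds.

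SOT replicate 1, the SOT library nearest to the untreated ones for PTGS2, ALOX5AP and ALOX5, was at 0 counts for ALOX15. Cell types known for this enzyme were read in the same libraries. The enzyme was first purified from rabbit reticulocytes, and human eosinophils are rich in it. Eosinophil markers summed to 0.143, 1.18 and 1.17 CPM in SOT folds, 2.32, 2.38 and 1.70 CPM in untreated folds and 0.254, 0.506 and 0.262 CPM in normal folds. Of 4 tested, 1 was higher in untreated folds, beside 17.7% of all genes. Erythroid markers summed to 587, 229 and 152 CPM in SOT folds, 665, 610 and 625 CPM in untreated folds and 309, 210 and 191 CPM in normal folds. Of 5 tested, 1, TFRC, rose in untreated folds, beside 17.7% of all genes, and their median log2 fold change there was 0.26. The sum took in all 9 matched genes, tested or not, and the listed globin genes HBA1, HBB and HBA2 were not matched. RHAG, a membrane protein of red cell precursors, had counts in SOT folds but was at 0 counts in untreated and normal folds. The part of these cells in the ALOX15 difference was not tested.

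**Figure D2:**
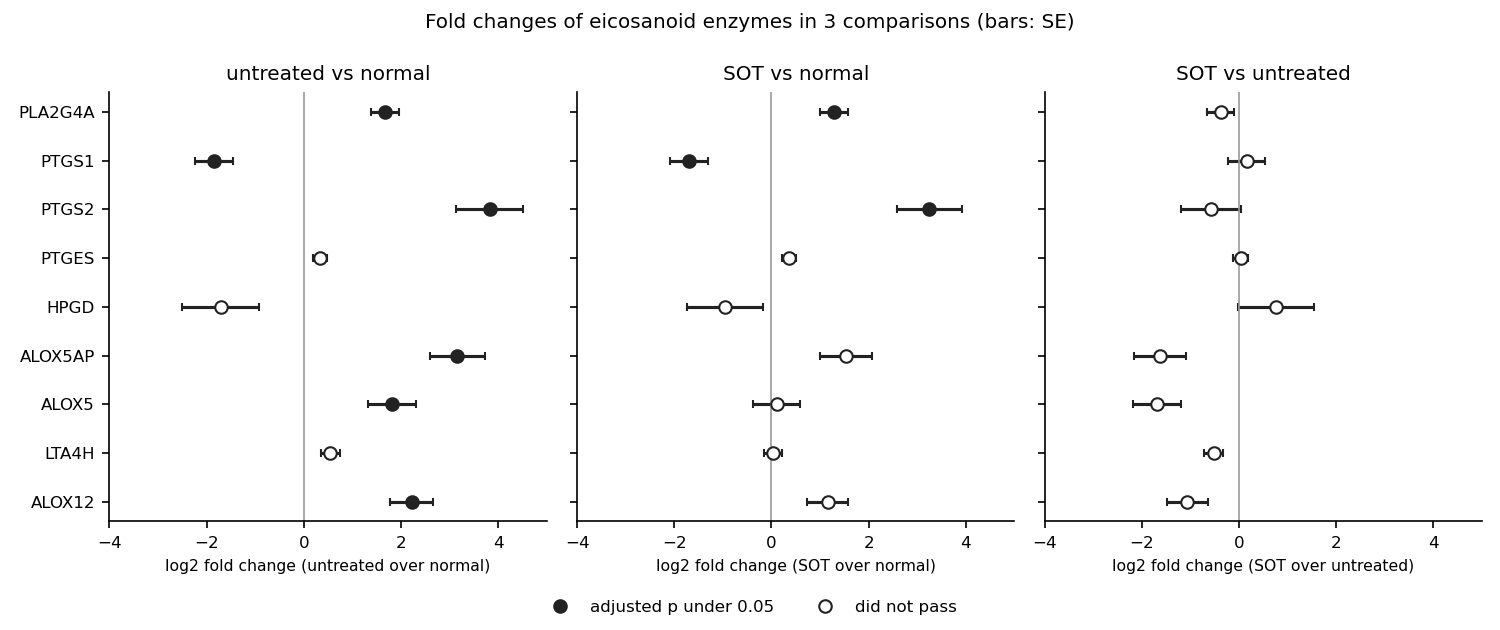
Log2 fold changes of 9 transcripts (points, with SE as bars) from edgeR in untreated over normal, SOT over normal and SOT over untreated folds, with filled points for an adjusted p under 0.05 and ALOX15 left out because its normal libraries are at 0. PTGS2 reaches 3.82 in untreated and 3.25 in SOT folds over normal ones, and all points in SOT over untreated folds are open.

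Ratios of counts within a library do not depend on library size. The ratio of PTGS2 to PTGS1, the inducible over the constitutive cyclooxygenase, was 6.04, 5.75 and 2.23 in SOT folds, 11.5, 6.46 and 7.89 in untreated folds and 0.190, 0.167 and 0.158 in normal folds. The 3 groups did not overlap, with untreated folds highest and normal folds lowest. The log2 difference was 5.61 in untreated over normal folds, 4.64 in SOT over normal folds and -0.97 in SOT over untreated folds. Each had an exact two-sided permutation p = 0.1, the smallest that 3 against 3 allows, and 0.129 after Benjamini-Hochberg adjustment over the 9 ratio tests.

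The ratio of PTGS2 to HPGD set a prostaglandin-making enzyme against a prostaglandin-removing one. It was 213, 66.2 and 3.35 in SOT folds, 85.1, 85.1 and 65.0 in untreated folds and 2.45, 2.11 and 1.07 in normal folds. SOT folds held both the highest value and one close to the normal range. The log2 difference was 5.46 in untreated over normal folds and 4.35 in SOT over normal folds, each with exact permutation p = 0.1, and -1.10 in SOT over untreated folds with exact permutation p = 0.8. The SOT over normal difference was 3.07 without SOT replicate 1 and 6.07 without SOT replicate 3. The SOT over untreated difference was -2.38 without SOT replicate 1 and 0.61 without SOT replicate 3.

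ALOX5AP and ALOX5, by contrast, kept close to 1 ratio in all injured libraries. It was 1.36, 1.27 and 1.06 in SOT folds, 1.19, 1.28 and 1.20 in untreated folds and 0.430, 0.447 and 0.615 in normal folds. No injured library overlapped with a normal one, while SOT and untreated folds overlapped. The log2 difference was 1.32 in untreated over normal folds and 1.32 in SOT over normal folds, each with exact permutation p = 0.1, and 0.0019 in SOT over untreated folds with exact permutation p = 1.0. A p of that size does not show that the ratio is alike in SOT and untreated folds.

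**Figure D3:**
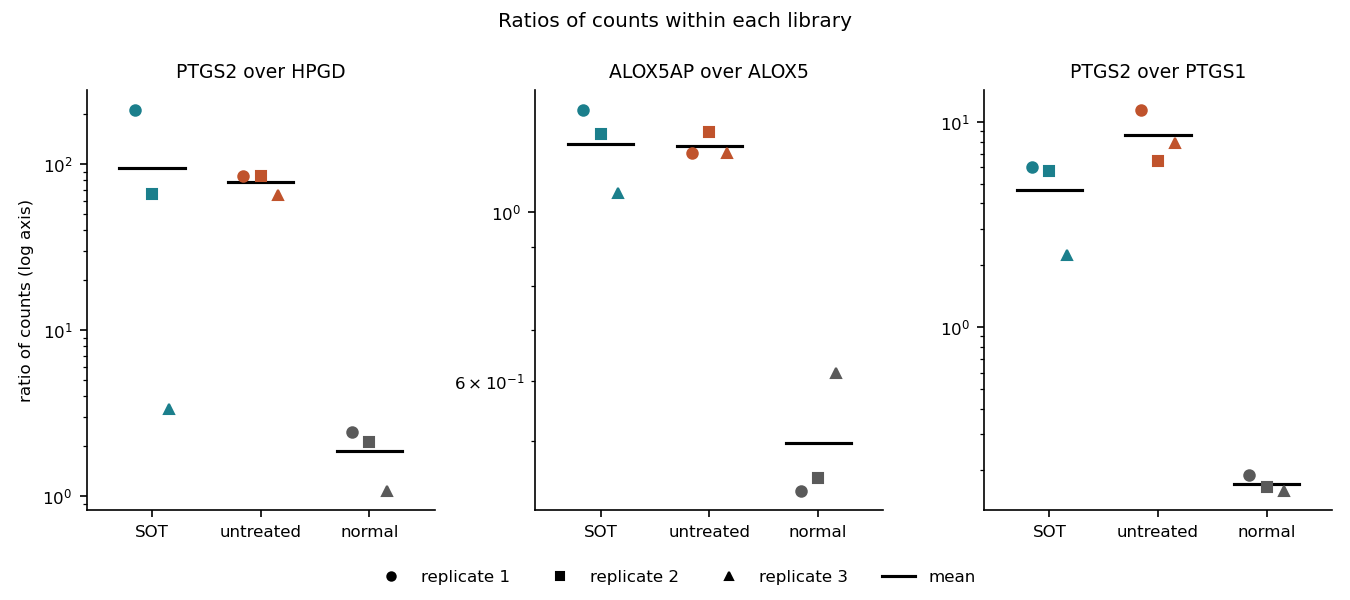
Ratios of read counts within each library on log axes, with SOT, untreated and normal folds from left to right, symbols for replicates 1 to 3 and bars for group means. Injured libraries lie above normal ones for all 3 ratios, and SOT replicate 3 has a PTGS2 to HPGD ratio of 3.35 where the highest normal library has 2.45.

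Levels of different transcripts were compared per length, as FPKM (fragments per kilobase, scaled to library size). In SOT folds PTGS2 averaged 63.5 ± 55.4, PTGES 51.1 ± 1.03, ALOX5AP 27.8 ± 24.2, LTA4H 25.7 ± 6.94 and PTGS1 16.7 ± 9.94 FPKM (SD, n = 3). In untreated folds PTGS2 averaged 88.0 ± 28.7, ALOX5AP 79.3 ± 11.97, PTGES 45.4 ± 3.22, LTA4H 33.3 ± 3.12 and ALOX5 24.0 ± 3.05 FPKM. In normal folds PTGS1 averaged 51.0 ± 12.6, PTGES 36.9 ± 8.26, LTA4H 23.3 ± 2.55, ALOX5AP 9.09 ± 0.415 and ALOX5 6.99 ± 1.56 FPKM. PTGS1 thus led the set in normal folds and stood eighth in untreated folds at 13.8 ± 1.04 FPKM, while PTGS2 stood at 6.35 ± 1.23 FPKM and sixth in normal folds and led in untreated folds. In SOT folds PTGS2 led by its mean through SOT replicate 1, with 125, 48.4 and 17.3 FPKM against 50.2, 52.2 and 50.8 FPKM for PTGES. Without SOT replicate 1 the SOT means were 51.5 for PTGES, 32.8 for PTGS2, 25.8 for LTA4H, 13.8 for ALOX5AP and 4.42 for ALOX5, in FPKM.

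Several neighbours in these orders differed by less than the larger of their SDs. In SOT folds this held for every pair of neighbours down to HPGD. In untreated folds it held for PTGS2 and ALOX5AP, for PLA2G4A (16.4 ± 1.03 FPKM) and ALOX12 (16.3 ± 6.97 FPKM) and for ALOX12 and PTGS1. In normal folds it held from ALOX5 through PTGS2, PLA2G4A (5.29 ± 0.607 FPKM) and HPGD (4.70 ± 2.17 FPKM) down to ALOX12. PTGS1 was above PTGES in each normal library. Among the lower members, PLA2G4A stood at 13.8 ± 5.57, ALOX12 at 8.50 ± 3.16, ALOX5 at 7.99 ± 6.19 and HPGD at 2.65 ± 3.19 FPKM in SOT folds, HPGD at 1.40 ± 0.458 FPKM in untreated folds and ALOX12 at 3.58 ± 1.19 FPKM in normal folds. ALOX15 was last in every group, at 0.00622 FPKM in SOT folds, 0.213 FPKM in untreated folds and 0 in normal folds.

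The wider pathway was read from a list of 39 further enzymes and carriers, of which 34 were matched and 31 tested. In untreated over normal folds 5 rose, 5 fell and 21 did not pass, so that 32.3% were called beside 32.8% of all genes, with a median log2 fold change of 0.12. Thromboxane synthase, TBXAS1, had 31.0, 32.1 and 34.4 CPM in untreated folds and 2.86, 3.21 and 2.88 CPM in normal folds (log2 3.44, SE 0.32, edgeR adjusted p = 0.000506). Prostacyclin synthase, PTGIS, had 2.03, 1.04 and 1.11 CPM in untreated folds and 4.31, 3.85 and 5.55 CPM in normal folds (log2 -1.71, SE 0.35, adjusted p = 0.00785). A second row described as a prostacyclin synthase, LOC103352392, named after its values were seen, also fell (log2 -2.06, SE 0.32, adjusted p = 0.00285), and reads may be shared between the 2 rows.

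Enzymes that process cysteinyl leukotrienes, the products made by joining leukotriene A4 to glutathione, were among those that rose. GGT1, which trims leukotriene C4 to D4, rose by 2.95 on the log2 scale in untreated folds (SE 0.60, edgeR adjusted p = 0.00778), and DPEP1, the dipeptidase that makes leukotriene E4, by 4.12 (SE 0.74, adjusted p = 0.00466). DPEP1 had 13.0, 4.71 and 9.42 CPM in untreated folds and 0.277, 0.968 and 0.306 CPM in normal folds, and its log2 value was 4.95 without normal replicate 2. PLA2G7, which breaks down platelet-activating factor, rose by 2.55 (SE 0.27, adjusted p = 0.000702). ALOXE3, a lipoxygenase of the epidermal barrier, fell (log2 -1.55, SE 0.46, adjusted p = 0.0323). The ALOXE3 call was lost without any of the 3 untreated replicates or without normal replicates 1 or 3 (adjusted p = 0.0546 to 0.110).

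In SOT over normal folds 5 of these 31 rose and 2 fell, 22.6% beside 16.7% of all genes. TBXAS1 had 20.8, 14.7 and 7.90 CPM in SOT folds, above all normal libraries (log2 2.28, SE 0.31, edgeR adjusted p = 0.00540), and PLA2G7 rose by 1.82 (SE 0.26, adjusted p = 0.00618). DPEP1 rose by 2.83 (SE 0.70, adjusted p = 0.0305) and GGT1 by 2.50 (SE 0.59, adjusted p = 0.0255), and each call was lost in 5 of 9 fits that left out 1 library. For DPEP1 these were the fits without SOT replicates 1 or 2, untreated replicate 3 or normal replicates 1 or 3 (adjusted p = 0.0579 to 0.101), and its value was 3.65 without normal replicate 2. For GGT1 they were those without SOT replicates 1 or 2 or any normal replicate (adjusted p = 0.0571 to 0.0727). PTGR2, a reductase in prostaglandin breakdown, fell by 0.80 (SE 0.11, adjusted p = 0.00558), and PTGES2, another prostaglandin E synthase, fell by 0.73 (SE 0.13, adjusted p = 0.0112). Both also fell in untreated over normal folds, PTGR2 by 0.76 (SE 0.11, adjusted p = 0.00223) and PTGES2 by 0.64 (SE 0.13, adjusted p = 0.00805).

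Between SOT and untreated folds none of the 31 passed by edgeR, beside 0.0115% of all genes. An unadjusted p under 0.05 was found for 7, beside 2194 of all 17344 genes. DESeq2 called 5, beside 3.93% of all genes, and limma called 0. By edgeR the smallest p-values belonged to PTGIS and PLA2G4C. PTGIS had 5.15, 2.90 and 3.96 CPM in SOT folds and 2.03, 1.04 and 1.11 CPM in untreated folds, without overlap (log2 1.52, SE 0.35, adjusted p = 0.173). PLA2G4C, a phospholipase of the same family as PLA2G4A, had 0.409, 0.318 and 0.892 CPM in SOT folds and 2.07, 1.66 and 2.95 CPM in untreated folds (log2 -2.04, SE 0.51, adjusted p = 0.198). The LOC103352392 row had a log2 value of 1.69 (SE 0.32, adjusted p = 0.135).

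Receptors for these lipids were read from a list of 18, of which 14 were tested. In untreated over normal folds 4 rose and 1 fell, 35.7% beside 32.8% of all genes, with a median of -0.017. FPR2, a receptor of neutrophils and macrophages that binds formyl peptides and has been described as a lipoxin receptor, had 259, 142 and 187 CPM in untreated folds and 1.48, 4.66 and 3.95 CPM in normal folds (log2 5.86, SE 1.33, edgeR adjusted p = 0.0118). The prostacyclin receptor PTGIR rose by 2.30 (SE 0.50, adjusted p = 0.0104) and the cysteinyl leukotriene receptor CYSLTR2 by 2.18 (SE 0.38, adjusted p = 0.00414). The prostaglandin E2 receptors went opposite ways, with PTGER4 higher by 0.87 (SE 0.13, adjusted p = 0.00218) and PTGER2 lower, at -1.74 (SE 0.44, adjusted p = 0.0174). The PTGER2 call was lost without untreated replicates 2 or 3 or normal replicate 1 (adjusted p = 0.0607 to 0.0674).

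In SOT over normal folds FPR2, CYSLTR2 and PTGER4 rose and none of the 14 fell, 21.4% beside 16.7% of all genes. PTGER4 had 30.8, 34.2 and 29.8 CPM in SOT folds and 20.7, 17.6 and 22.9 CPM in normal folds (log2 0.63, SE 0.12, edgeR adjusted p = 0.0143, and 0.0501 without normal replicate 1). FPR2 had 198, 20.5 and 4.74 CPM in SOT folds (log2 4.47, SE 1.24, adjusted p = 0.0431), and its log2 value was 1.94 without SOT replicate 1 (adjusted p = 0.0935). The FPR2 call held in 1 of the 9 fits that left out 1 library, the one without SOT replicate 3. CYSLTR2 rose by 1.37 (SE 0.37, adjusted p = 0.0388), a call kept without SOT replicate 3 and without normal replicate 2 and lost in the other 7 fits (adjusted p = 0.0534 to 0.108). None of the 14 passed between SOT and untreated folds by edgeR, DESeq2 or limma. Beside 2194 of all 17344 genes, 2 receptors had an unadjusted p under 0.05. These were CMKLR1, a receptor for chemerin (log2 -0.61, SE 0.22, adjusted p = 0.310), and PTGIR (log2 -1.27, SE 0.49, adjusted p = 0.334), and PTGIR passed without SOT replicate 1 (log2 -2.02, SE 0.36, adjusted p = 0.0370).

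**Figure D4:**
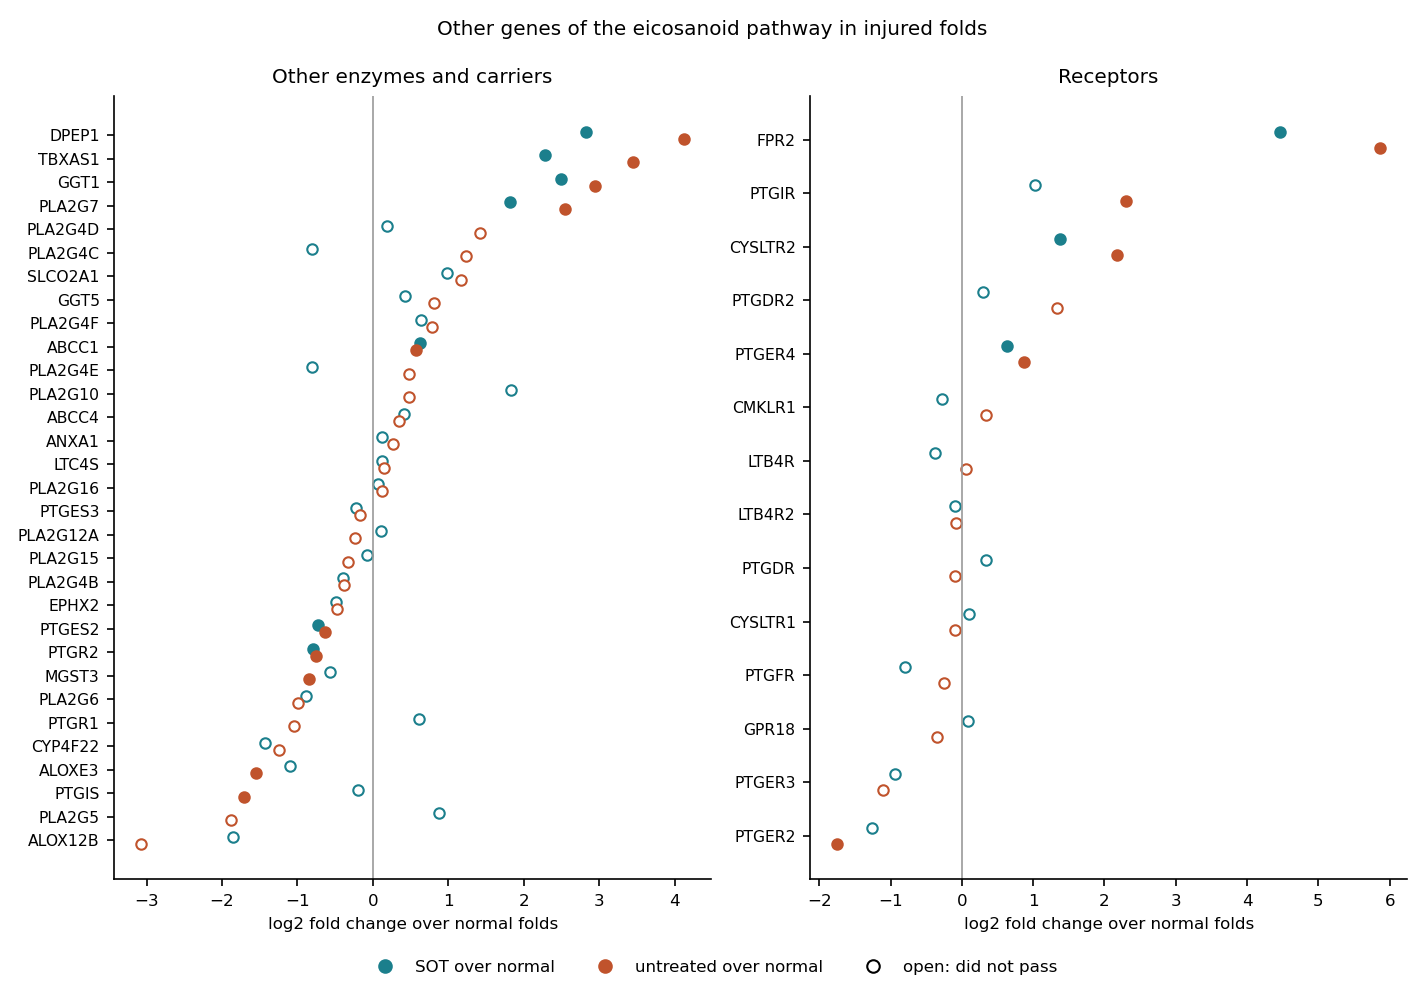
Log2 fold changes over normal folds of the 31 further enzymes and carriers (left) and the 14 receptors (right) tested, with SOT over normal above untreated over normal for each gene, and filled points for an edgeR adjusted p under 0.05. TBXAS1 lies at 2.28 and 3.44 and FPR2 at 4.47 and 5.86 in SOT and untreated folds, while PTGIS lies at -1.71 in untreated folds.

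The other marker lists were read in the same libraries. Of 6 mast cell markers, 1 rose in SOT and 2 rose in untreated folds over normal folds, and the sum, in injured folds mostly SRGN, which other leukocytes also express, was 143 to 769 CPM in SOT folds, 996 to 1151 CPM in untreated folds and 80.7 to 126 CPM in normal folds. Of 12 fibroblast markers, 3 rose and 2 fell in SOT folds and 5 rose and 4 fell in untreated folds, and of 12 endothelium markers 3 rose in SOT and 5 in untreated folds. Over all genes 9.01% rose and 7.67% fell in SOT folds, and 17.7% rose and 15.1% fell in untreated folds. Of 11 T and NK cell markers, none passed in SOT folds by edgeR (4 at an unadjusted p under 0.05, 3 by DESeq2, 1 and 0 by limma at the 2 pseudocounts), and 1 rose and 1 fell in untreated folds. Between SOT and untreated folds no marker among the 114 of all these lists passed by edgeR or limma. An unadjusted p under 0.05 was found for 35, beside 2194 of all 17344 genes. DESeq2 called 16, beside 3.93% of all genes.

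**Figure D5:**
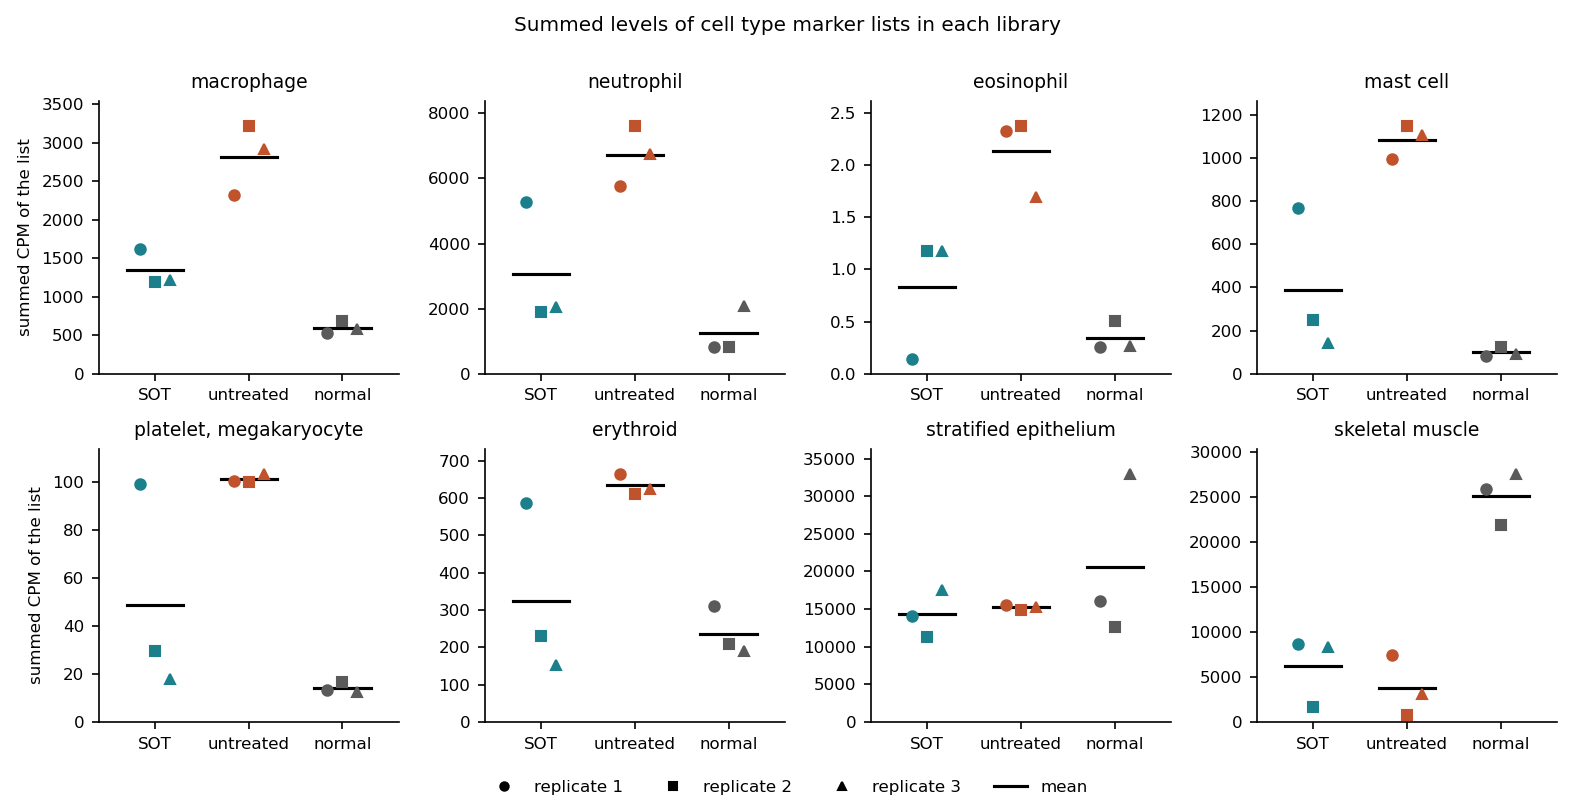
Summed CPM of 8 cell type marker lists in each library (linear axes from 0), with SOT, untreated and normal folds from left to right, symbols for replicates 1 to 3 and bars for group means. The macrophage and neutrophil sums are highest in untreated folds, SOT replicate 1 has the highest neutrophil sum of the SOT libraries at 5269 CPM, and skeletal muscle is highest in normal folds.

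For 4 of the transcripts the genes with the nearest pattern over the 9 libraries were named by the root mean square difference of centred log2 CPM. Because these genes were picked on the same 9 libraries, a like order of libraries is no separate result. For ALOX5AP these were RUFY4 (0.25), FAM65B (0.27) and MS4A4A (0.27). MS4A4A, a surface protein of macrophages, had 85.7, 26.0 and 13.7 CPM in SOT folds, 94.3, 106 and 99.8 CPM in untreated folds and 16.2, 17.2 and 12.5 CPM in normal folds. For PTGS2 they were TNIP3 (0.31), the cytokine gene IL1A (0.41) and the niacin receptor gene HCAR2 (0.41). IL1A had 266, 51.7 and 18.9 CPM in SOT folds, 322, 118 and 216 CPM in untreated folds and 6.94, 11.3 and 9.81 CPM in normal folds, the same order of libraries as PTGS2 within the SOT and untreated groups.

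For HPGD the nearest were LGI3 (0.32), the tight junction gene CLDN8 (0.40) and PHYHIP (0.41). CLDN8 had 1.96, 2.34 and 8.85 CPM in SOT folds, 2.74, 1.95 and 2.58 CPM in untreated folds and 2.95, 6.62 and 11.5 CPM in normal folds, with SOT replicate 3 high as it was for HPGD. For ALOX15 they were RDH8 (0.28), SLC17A4 (0.28) and LHFPL5 (0.29), each at or under 1.13 CPM in every library, so these likenesses rest on few counts.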

How the data were processed

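Per the submitters' processing notes, the authors used cutadapt 1.9, HISAT2 2.0.4, StringTie 1.3.4d and edgeR on OryCun2.0. The role of each tool, the strandedness and how multi-mapping reads were counted are not stated there. The deposited values, per the file headers, were whole-number read counts and FPKM for each gene in each library. Counts were tested in R 4.3.3 with edgeR 4.0.16 (filterByExpr, TMM, quasi-likelihood fit of all 9 libraries with 1 mean per group). FPKM served for levels between genes and for limma 3.58.1 on log2(FPKM + 0.1) and log2(FPKM + 1). DESeq2 1.42.0 was another alternative. Ratios were compared with exact permutation tests. Libraries without counts were given a floor of 3 counts. Of 5734 LOC rows, 530 took a symbol from RefSeq (mOryCun1.1, names only), GGT1 and PTGIS among them.

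Transcripts and lists were chosen with earlier results of these data known. From each pathway list the text names up to 6 called genes with the largest change per comparison, or, with no call, the 2 of lowest p, and the 3 genes most like ALOX15, ALOX5AP, PTGS2 and HPGD.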

Additional observations from a re-analysis of the deposited data

How the results depend on the processing

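Scaling by RLE or total counts and dropping the filter moved no count of calls by over 1.5 times. Total counts alone moved the median of all genes to 0.17 in SOT over untreated and 0.11 in SOT over normal folds. DESeq2 called 2 of the 10 transcripts, ALOX15 counted, and 5 further enzymes in SOT over untreated folds, beside 3.93% of all genes. It called 5 transcripts in SOT over normal folds, beside 27.7%. Fits of the 2 compared groups alone called 1 transcript, 4 further enzymes and 1 receptor in SOT over normal folds. In untreated over normal folds they called 9 transcripts, ALOX15 counted and HPGD and LTA4H added, with 13 further enzymes and 6 receptors. The share of all genes was not worked out for these fits. Blocking on the replicate number gave 7, 0 and 3 transcripts in untreated over normal, SOT over untreated and SOT over normal folds. The counts were the same without it, with ALOX15 among the 7. With the block, ALOX5 in SOT over normal folds was -0.053. Deviations of log2 CPM from the group means correlated at -0.053 to 0.41 between same-numbered libraries of different groups. Between differently numbered ones they correlated at -0.40 to 0.25. The labels do not say that the numbers pair samples, so they were not taken as pairs.

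Leaving out 1 library gave 6 to 9, 0 to 2 and 0 to 6 transcripts in untreated over normal, SOT over untreated and SOT over normal folds. ALOX15 was counted in the first of these ranges. The further enzymes gave 7 to 13, 0 to 2 and 4 to 8, and the receptors 4 to 6, 0 to 1 and 0 to 4. The share of all genes called moved too. Without SOT replicate 1 it was 33.2%, 2.24% and 13.8%, against 32.8%, 0.0115% and 16.7% with all 9 libraries. The share was not worked out for the other left-out fits. Among these were the fit without SOT replicate 3, which gave the 9 and the 6, and that without normal replicate 2, which gave 0 in SOT over normal folds. Their counts thus cannot be told apart from a change over all genes. The sign turned within the range of those fits, in SOT over untreated folds, for PTGS1 (-0.47 to 0.45, negative without SOT replicate 1), PTGES (-0.018 to 0.095, negative without untreated replicate 2), HPGD (-0.87 to 1.21, negative without SOT replicate 3), the PTGS2 to HPGD ratio (-2.38 to 0.61) and the ALOX5AP to ALOX5 ratio (-0.076 to 0.11). In SOT over normal folds it turned for ALOX5 (-0.78 to 0.44, negative without SOT replicate 1 or normal replicate 3) and LTA4H (-0.12 to 0.23, negative without SOT replicate 3 or normal replicate 2). ALOX5 there was also -0.041 and -0.017 by limma at the lower and higher pseudocount. The cause was not tested. With 3 libraries a group and SOT libraries this unlike, a difference that did not pass is not shown to be absent.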
